A study of Danio rerio with 24 samples.

Results

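Genes of the motile cilium and flagellum were read across sorted blood, endothelial and other cells of the zebrafish. They were chosen by name: every row of the gene table starting with dnah, dnai, dnal, dnaaf, tekt, rsph, cfap or spag, or with ift and a digit, together with saxo2. The rule gave 74 of 25067 genes, of which 20 encode axonemal dynein subunits, 4 dynein arm assembly factors, 12 radial spoke, central pair and other spag proteins, 5 tektins and saxo2, 21 cilia and flagella associated proteins and 12 proteins of intraflagellar transport (IFT). All 74 had at least 1 FPKM in at least 2 libraries and were tested; 71 would have passed without the kidney double-negative libraries and 69 on the tail libraries alone.

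A motile cilium or sperm flagellum is built on the axoneme, a ring of doublet microtubules around a central pair. Dynein arms on the doublets slide them against each other, radial spokes and the central pair control that sliding, tektins and other inner proteins stiffen the doublets, and IFT particles carry parts to the tip. Dynein arms are put together in the cytoplasm by assembly factors before they are carried in. IFT also builds immotile primary cilia, which most vertebrate cells can form, whereas dynein arms and spokes belong to motile ones. In zebrafish, motile cilia beat in the pronephric tubules, along the floor plate and central canal of the spinal cord and in the ear and nose, and sperm carry flagella. Adult kidney marrow is the blood-forming tissue of the fish and lies among the kidney tubules.

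The 24 libraries of polyadenylated RNA formed 12 groups of 2. From tails of double transgenic Tg(kdrl:mCherry/CD41:GFP) fish, endothelial cells (EC), hematopoietic stem and progenitor cells (HSPC) and double-negative cells (DN) had been sorted at 36 hours post fertilization (hpf) and at 3 and 4 days post fertilization (dpf), and DN cells also at 52 hpf. From kidney marrow of CD41:GFP fish at 3 months post fertilization (mpf), HSPC and the remaining cells had been sorted. The labels name those remaining cells double negative or NC, but these fish carried a single reporter, so kidney DN means negative for CD41:GFP. kdrl drives mCherry in endothelium and CD41 marks HSPC and thrombocytes. HSPC and EC at 52 hpf were not analysed here. Kidney and tail therefore differ in age, organ and reporter at once, and these cannot be told apart. The tissue of blood expansion in the tail appears in sample titles from 52 hpf onwards and not at 36 hpf. Since nothing ties replicates to separate clutches or sorts, the spread behind each p-value may be technical.

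Values are FPKM, fragments scaled by gene length and library total, as deposited, replicate 1 first. Log2 changes are differences of mean log2(FPKM + 1), with ± their standard error from limma; the added 1 makes the change of a gene with low values smaller than its true fold. A gene was called where the Benjamini-Hochberg adjusted p over all 21024 tested genes was under 0.05 and the log2 change was at least 1 in size. Libraries held between 1741360 and 21338170 reads, recovered from the FPKM steps. The shallowest, EC at 4 dpf replicate 2, had only 2483 genes above 0, and 69 of the 74 cilium genes were listed at 0 in it. HSPC at 4 dpf replicate 2 was the next poorest in genes, with 11265 above 0 and 55 of the cilium genes at 0. Kidney DN had 10495824 and 7146361 reads, with 17054 and 20374 genes above 0. itga2b, which encodes CD41, was at 14.9 and 39.7 FPKM in kidney HSPC and at 0.583 and 2.46 in kidney DN, but at 0.428 and 0 in tail HSPC at 36 hpf, the stage at which the HSPC label is least borne out by its own marker. In bulk samples, fewer cells of a type and less RNA per cell cannot be told apart.

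The cilium genes were highest by a wide margin in kidney DN. Their median was 15.4 and 53.6 FPKM in the kidney DN libraries and 2.22 and 5.68 in kidney HSPC. At 36 hpf it was 3.39 and 3.70 in EC and 1.91 and 2.17 in HSPC. Tail DN stayed lower, with medians between 0.374 and 1.41 over 8 libraries. Outside the 2 poor 4 dpf libraries, HSPC at 3 dpf were lowest, with a median of 0 in both and 41 and 43 genes listed at 0. These HSPC libraries were themselves of reduced complexity, with 13459 and 13274 genes of the whole table above 0. Kidney DN was the group with the highest mean for 65 of the 74 genes, EC at 36 hpf for 4, kidney HSPC for 2, and EC at 4 dpf, HSPC at 3 dpf and DN at 3 dpf for 1 each. Both kidney DN libraries lay above all 22 others for 52 of the 74, against 6.58% of all tested genes.

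**Figure D1:**
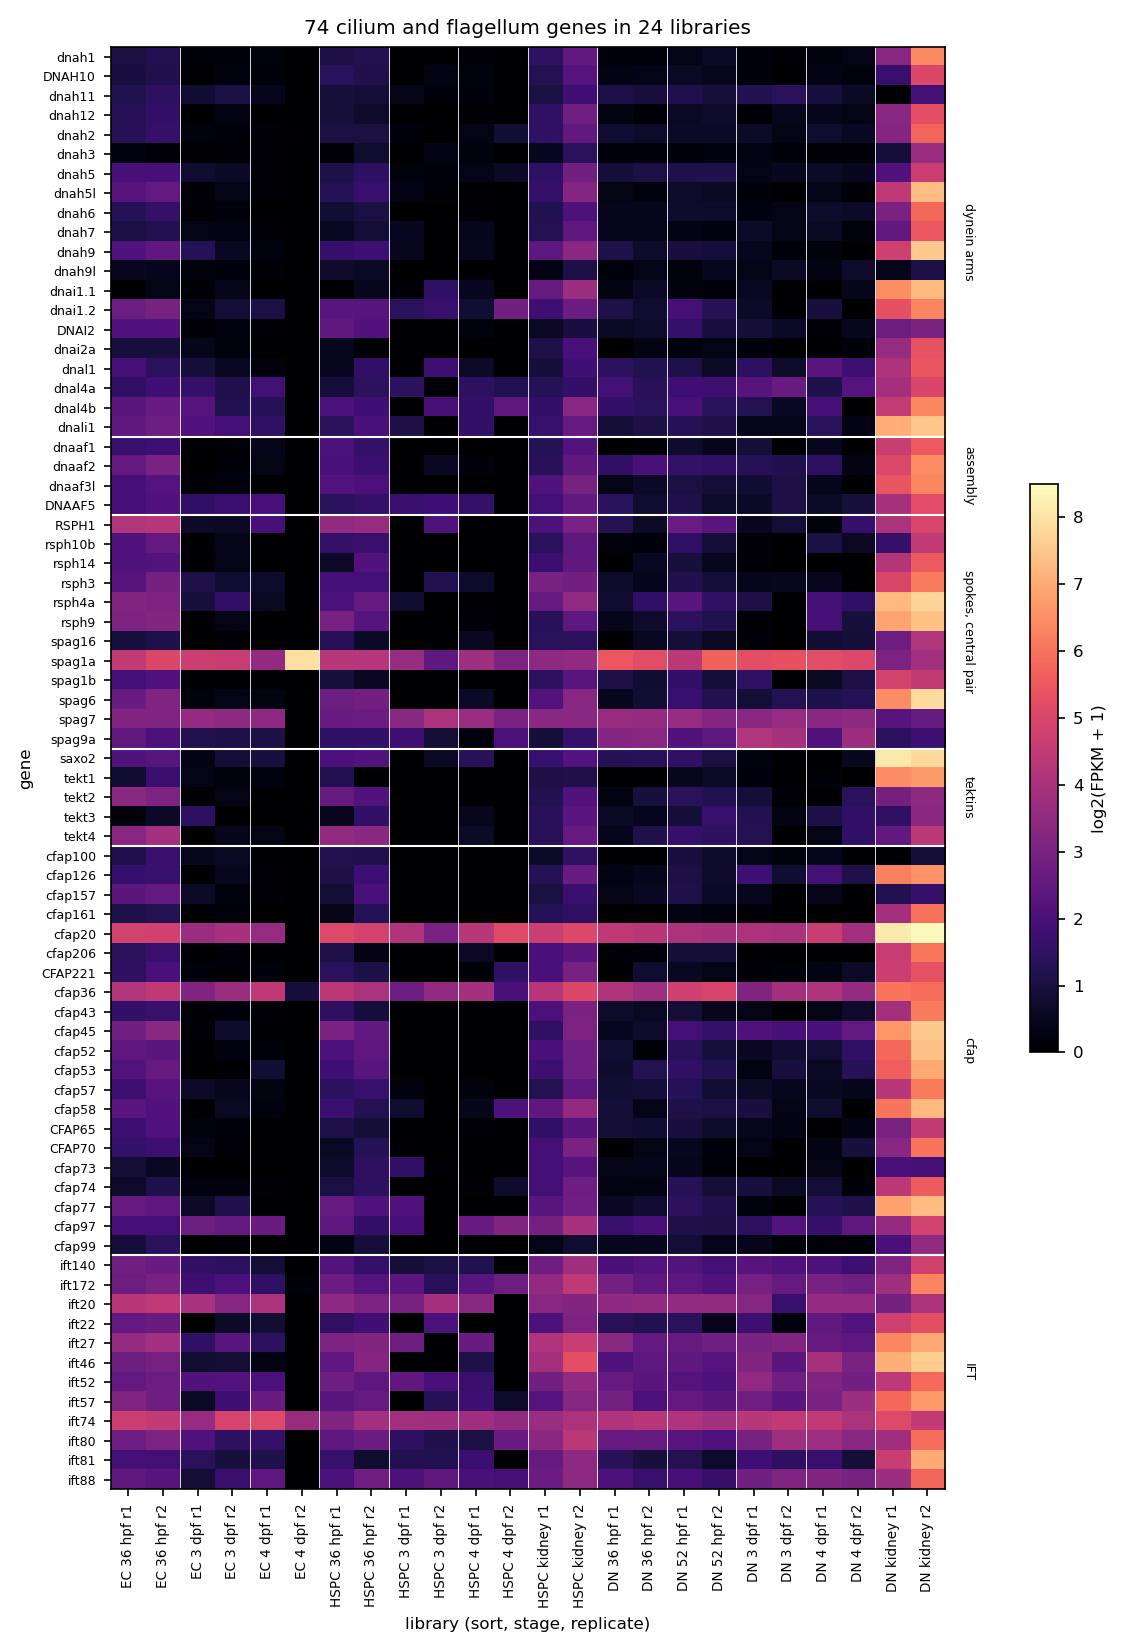
Levels of the 74 cilium genes (rows, grouped by family) in the 24 libraries (columns, grouped by sort and stage), as log2(FPKM + 1) on the colour scale. The 2 kidney DN columns stand out in every family, EC and HSPC at 36 hpf are the next brightest tail columns, and 41 and 43 genes are at 0 in the HSPC columns of 3 dpf.

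Kidney DN was first set against tail DN, the mean of 4 stages. The cilium genes were higher by a median of 3.85 on the log2 scale, where the median of all genes was −0.07. Of the 74, 65 rose (87.8%, against 16.7% of all tested genes) and 1, spag9a, fell (1.35%, against 19.7%). By family, 18 of 20 dynein genes rose, 4 of 4 assembly factors, 9 of 12 spoke and spag genes, 5 of 5 tektins and saxo2, 19 of 21 cfap genes and 10 of 12 IFT genes. The family medians ran from 2.42 for IFT and 2.46 for tektins and saxo2, through 3.51 for the spoke and spag genes and 3.87 for dyneins, to 4.48 for cfap and 4.57 for the assembly factors. Against tail DN at 4 dpf alone, the closest tail stage in age, 62 rose (12.5% of all genes), 1 of them outside the 65, and 0 fell (17.2%). In a comparison chosen after seeing the data, kidney DN against EC at 36 hpf, the tail group richest in these genes, 56 rose (10.2% of all genes) and 1 fell (14.0%), cfap157.

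**Figure D2:**
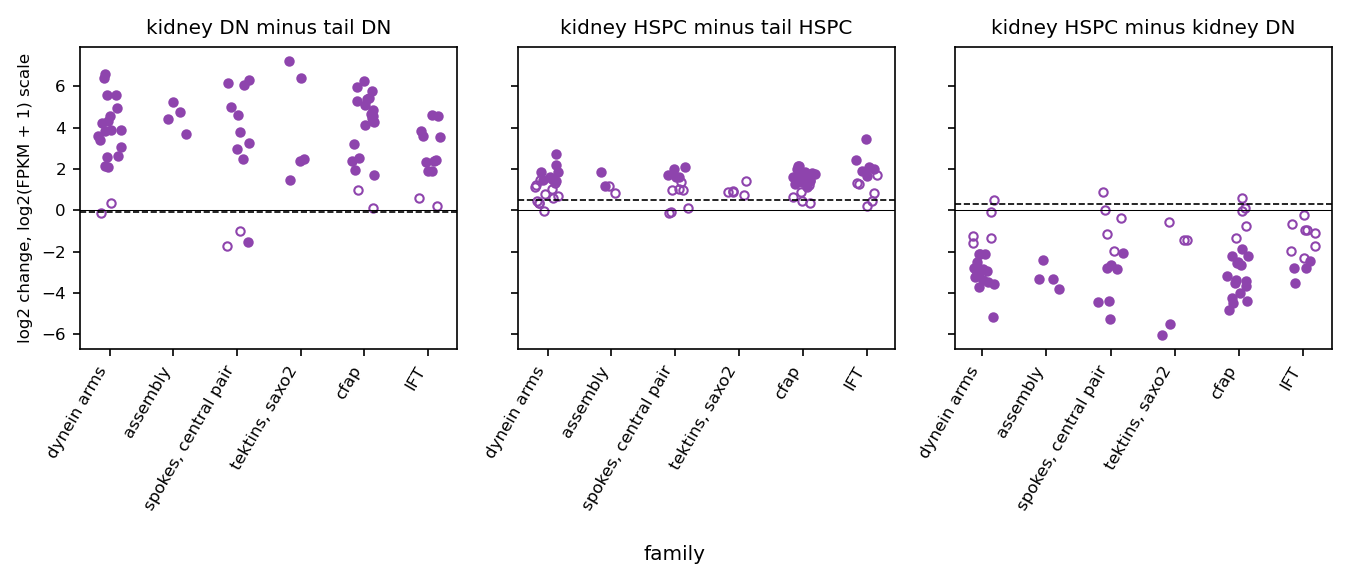
Log2 change of each cilium gene, by family, for kidney DN minus tail DN, kidney HSPC minus tail HSPC and kidney HSPC minus kidney DN; filled points were called, open points were not, and dashed lines mark the median of all genes. In the first panel 65 genes are filled above 0, in the second 36, and in the third 48 below 0.

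Among dynein arm genes, dnali1, a light intermediate chain of the inner arms, stood at 131 and 178 FPKM in kidney DN and 2.13 and 4.90 in kidney HSPC. Its lowest, median and highest values were 0.245, 0.978 and 1.60 over the 8 tail DN libraries, 0, 1.36 and 2.98 over the 6 tail HSPC libraries and 0, 3.08 and 5.72 over the 6 tail EC libraries. The kidney DN libraries were thus far above every other, and the other sorts overlapped. It rose by 6.40 ± 0.47 from tail to kidney DN (limma adjusted p = 5.05e-09) and differed between kidney HSPC and kidney DN by −5.16 ± 0.60 (adjusted p = 6.68e-06). dnai1.1 and dnai1.2, paralogs of the outer arm intermediate chain gene whose reads may be partly exchanged, had unlike levels outside the kidney DN sort. dnai1.1 was at 88.9 and 153 FPKM in kidney DN and 4.96 and 12.4 in kidney HSPC, with a lowest, median and highest of 0, 0.196 and 0.525 in tail DN, 0, 0.228 and 1.85 in tail HSPC and 0, 0.0472 and 0.331 in tail EC. dnai1.2 was at 38.3 and 80.1 FPKM in kidney DN and 2.41 and 5.58 in kidney HSPC, but at 0, 0.831 and 2.74 in tail DN, 0.756, 3.03 and 6.13 in tail HSPC and 0, 0.920 and 6.85 in tail EC. Thus dnai1.1 in kidney HSPC was above all tail libraries, while dnai1.2 in kidney HSPC lay within the tail HSPC range.

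The outer arm heavy chain gene dnah9 was at 25.9 and 188 FPKM in kidney DN, 4.35 and 9.37 in kidney HSPC, and at 0, 0.501 and 1.18 (lowest, median, highest) in tail DN, 0, 0.395 and 2.35 in tail HSPC and 0, 0.938 and 4.55 in tail EC. dnal4b, which encodes a light chain and had the highest tail mean among the dyneins, was at 22.4 and 82.6 FPKM in kidney DN, 1.92 and 8.79 in kidney HSPC, and at 0, 1.60 and 3.03 in tail DN, 0, 2.62 and 4.28 in tail HSPC and 0, 2.64 and 5.18 in tail EC. Their kidney DN libraries differed from each other more than those of dnali1, and both still lay above all tail libraries. The other heavy chain genes were lower per length. dnah5l, a copy of the outer arm gene dnah5, was at 20.5 and 161 FPKM in kidney DN, dnah1 of the inner arms at 8.89 and 84.8, and dnah3 at 0.863 and 11.7. Replicate 1 of dnah3 fell into the range of kidney HSPC, at 0.417 and 1.59. dnah11 and dnah9l were the 2 dynein genes not called. dnah11, an outer arm heavy chain gene, was listed at 0 and at 2.57 FPKM in kidney DN and at 0.538, 1.05 and 1.58 in tail DN, a change of −0.12 ± 0.34. dnah9l was at 0.339 and 1.13 FPKM in kidney DN and at most 0.632 in tail DN, a change of 0.34 ± 0.22.

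All 4 assembly factors, named for the preassembly of dynein arms in the cytoplasm, rose in kidney DN. dnaaf3l was at 40.9 and 80.5 FPKM in kidney DN and 3.43 and 6.83 in kidney HSPC, and at 0, 0.628 and 1.12 (lowest, median, highest) in tail DN, 0, 0 and 3.59 in tail HSPC and 0, 0.125 and 3.75 in tail EC. dnaaf1, which encodes a leucine-rich repeat protein, was at 23.6 and 45.5 FPKM in kidney DN and 1.45 and 3.64 in kidney HSPC, and at 0, 0.202 and 0.849 in tail DN, 0, 0 and 3.12 in tail HSPC and 0, 0.193 and 2.42 in tail EC. dnaaf2, a co-chaperone gene, was at 32.1 and 86.4 FPKM in kidney DN and 1.56 and 4.57 in kidney HSPC, and at 0.245, 1.76 and 3.05 in tail DN, 0, 0.306 and 2.96 in tail HSPC and 0, 0.199 and 7.12 in tail EC. In each case no tail library reached the lower kidney DN library. The changes from tail to kidney DN were 5.22 ± 0.30, 4.75 ± 0.32 and 4.39 ± 0.40 in that order, and 3.69 ± 0.48 for DNAAF5.

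Among radial spoke genes, rsph4a, a spoke head gene, was at 150 and 212 FPKM in kidney DN and 4.99 and 10.1 in kidney HSPC, and at 0, 1.82 and 4.15 (lowest, median, highest) in tail DN, 0, 0.363 and 5.01 in tail HSPC and 0, 1.41 and 8.14 in tail EC. rsph9, of the same spoke head, was at 117 and 171 FPKM in kidney DN and 1.56 and 4.44 in kidney HSPC, and at 0, 0.789 and 2.78 in tail DN, 0, 0.0306 and 6.84 in tail HSPC and 0, 0.134 and 8.26 in tail EC. rsph3, a spoke stalk gene, was at 31.3 and 70.9 FPKM in kidney DN and 6.80 and 6.33 in kidney HSPC, and at 0, 0.393 and 1.26 in tail DN, 0, 0.954 and 2.67 in tail HSPC and 0, 0.901 and 6.49 in tail EC. The kidney DN libraries of these genes were above all others, and the highest tail library of each was EC at 36 hpf. spag6, a central pair gene, was at 86.5 and 236 FPKM in kidney DN and 3.61 and 8.85 in kidney HSPC, and at 0.409, 1.26 and 2.1 in tail DN, 0, 0.258 and 6.30 in tail HSPC and 0, 0.261 and 7.74 in tail EC. From tail to kidney DN these genes rose by 6.17 ± 0.41 (rsph4a), 6.31 ± 0.35 (rsph9), 5.01 ± 0.38 (rsph3) and 6.09 ± 0.39 (spag6). RSPH1, the third spoke head gene, rose by 3.24 ± 0.55 from a higher tail level.

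The spag name covers unlike proteins, and spag1a, spag7 and spag9a were not among those that rose from tail to kidney DN. spag1a, a paralog of spag1b in a gene family of dynein arm assembly, was at 7.39 and 13.5 FPKM in kidney DN and 9.81 and 10.4 in kidney HSPC, and at 19.8, 36.9 and 50.8 (lowest, median, highest) in tail DN, 4.46, 11.9 and 18.7 in tail HSPC and 10.5, 24 and 248 in tail EC. Both kidney DN libraries were below all 8 tail DN libraries, but the change of −1.74 ± 0.76 did not pass (adjusted p = 0.0804). The value of 248 FPKM belongs to EC at 4 dpf replicate 2, the library with few genes. spag1b was at 28.9 and 22 FPKM in kidney DN and at most 1.90 in tail DN and was called higher. spag9a, a scaffold of kinase signalling and vesicle motors, was at 1.68 and 2.38 FPKM in kidney DN and 0.837 and 1.97 in kidney HSPC, and at 3.49, 8.70 and 17.2 in tail DN, 0.190, 1.91 and 3.10 in tail HSPC and 0, 1.24 and 4.72 in tail EC. It fell by 1.55 ± 0.48 on the log2 scale from tail to kidney DN (adjusted p = 0.0153). spag7 was at 3.84 and 5.20 FPKM in kidney DN, under the lowest tail DN library at 8.46, and its change of −1.01 ± 0.59 did not pass.

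saxo2, a stabiliser of axonemal microtubules, had the largest rise on the log2(FPKM + 1) scale, while by the ratio of mean FPKM, kidney DN over tail DN, tekt1 (632), cfap161 (587), dnai1.1 (518) and dnah5l (343) were above it (309). It was at 278 and 230 FPKM in kidney DN and 2.15 and 3.63 in kidney HSPC, and at 0, 0.735 and 1.87 (lowest, median, highest) in tail DN, 0, 1.02 and 3.50 in tail HSPC and 0, 0.860 and 4.00 in tail EC. It rose by 7.24 ± 0.38 from tail to kidney DN (adjusted p = 5.25e-11). tekt1, whose product is a filament inside the doublets, was at 86.6 and 105 FPKM in kidney DN and 1.11 and 1.14 in kidney HSPC, and at 0, 0.0596 and 0.572 in tail DN, 0, 0 and 1.30 in tail HSPC and 0, 0.225 and 2.24 in tail EC. It rose by 6.41 ± 0.29 (adjusted p = 9.4e-12). Both stood within the tail range in kidney HSPC and far above it in kidney DN. tekt4 did not share that isolation. It was at 4.66 and 19.6 FPKM in kidney DN and 1.57 and 5.12 in kidney HSPC, and at 0, 1.32 and 2.04 in tail DN, 0, 0.291 and 10.5 in tail HSPC and 0, 0.308 and 13.7 in tail EC, so that kidney DN replicate 1 lay below EC at 36 hpf. tekt2 at 6.52 and 9.58 FPKM and tekt3 at 1.82 and 9.26 in kidney DN were called at lower levels still, with changes from tail DN of 2.37 and 1.47.

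**Figure D3:**
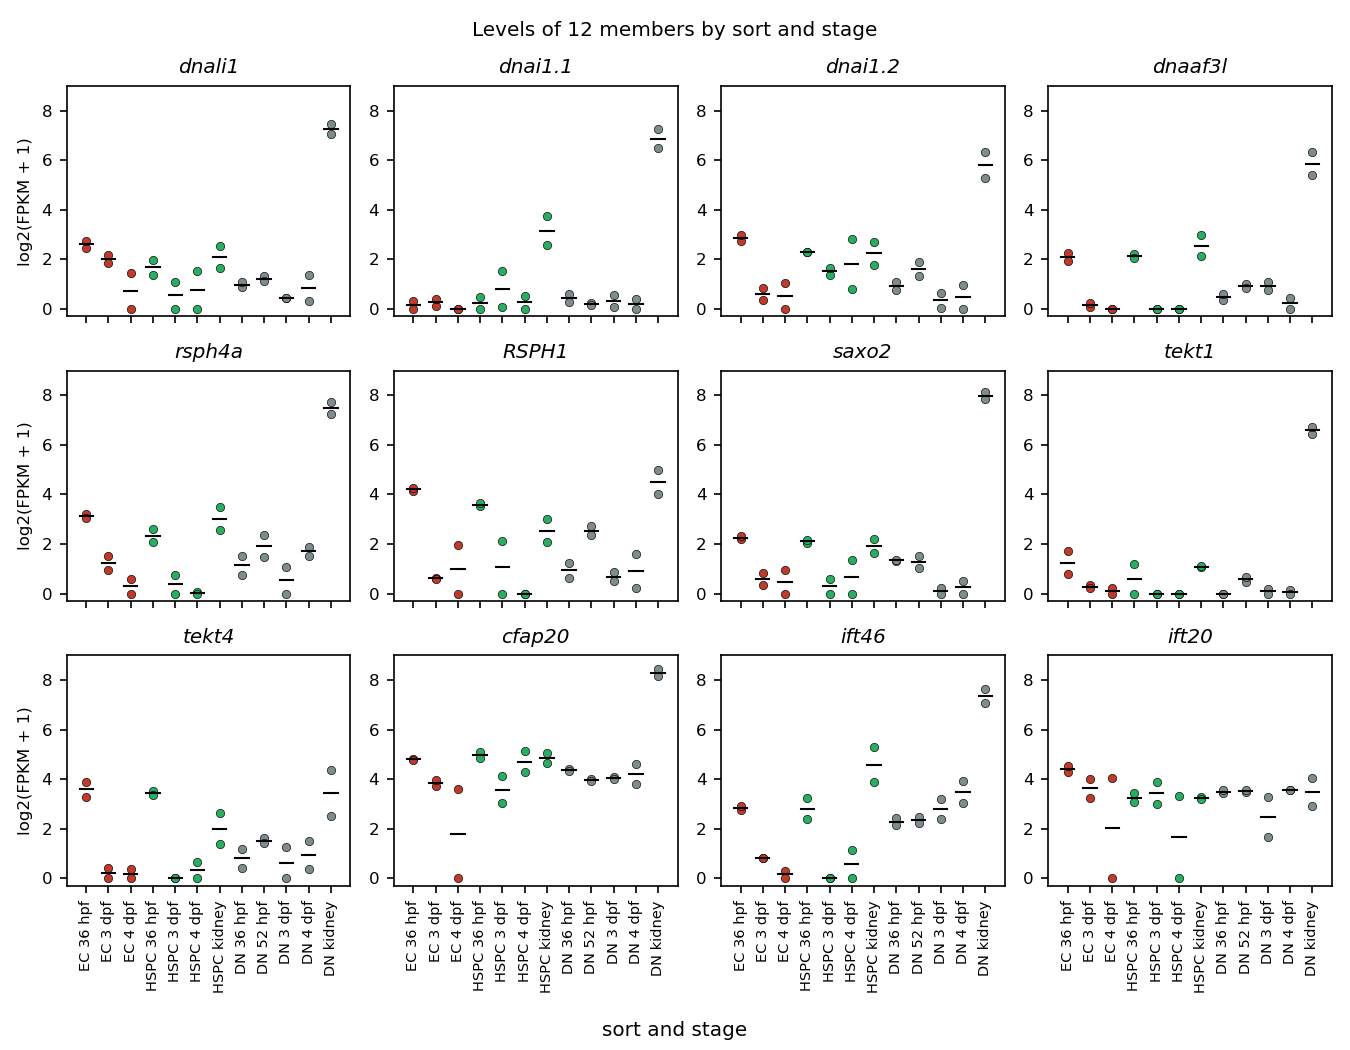
Levels of 12 cilium genes in every library, as log2(FPKM + 1), by sort and stage. Points are libraries, bars are group means of the 2 log2 values, and colours are red for EC, green for HSPC and grey for DN. For saxo2 the kidney DN libraries are at 278 and 230 FPKM with no other library above 4.00, whereas for tekt4 EC at 36 hpf reached 13.7 FPKM and kidney DN replicate 1 was at 4.66.

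The highest kidney level belonged to a cfap gene. cfap20, which joins the tubules of each doublet and also acts at basal bodies, was at 283 and 344 FPKM in kidney DN and 24.3 and 32.1 in kidney HSPC, and at 13.1, 15.6 and 23.6 (lowest, median, highest) in tail DN, 7.13, 23.2 and 33.7 in tail HSPC and 0, 13.3 and 27.2 in tail EC. It was the highest of the 74 genes in both kidney DN libraries, and in kidney HSPC it lay within the tail HSPC range. cfap45, an inner protein of the doublets, was at 99.1 and 185 FPKM in kidney DN and 1.75 and 7.40 in kidney HSPC, and at 0.424, 2.79 and 4.78 in tail DN, 0, 0 and 6.97 in tail HSPC and 0, 0.353 and 9.07 in tail EC. cfap52, another inner protein, was at 56.1 and 171 FPKM in kidney DN and 2.89 and 5.98 in kidney HSPC, and at 0.115, 0.777 and 1.81 in tail DN, 0, 0 and 4.25 in tail HSPC and 0, 0.154 and 4.49 in tail EC. cfap77 was at 112 and 160 FPKM in kidney DN and 3.96 and 5.97 in kidney HSPC, and at 0, 0.921 and 1.67 in tail DN, 0, 1.72 and 5.02 in tail HSPC and 0, 0.883 and 5.02 in tail EC. All 4 were higher in both kidney DN libraries than in any other. Their changes from tail to kidney DN were 4.14 ± 0.65, 5.43 ± 0.40, 5.77 ± 0.37 and 6.26 ± 0.42.

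cfap58, needed for the sperm flagellum in mammals, was at 65.1 and 153 FPKM in kidney DN and 4.54 and 10.7 in kidney HSPC, and at 0, 0.766 and 1.14 (lowest, median, highest) in tail DN, 0, 1.01 and 3.18 in tail HSPC and 0, 0.346 and 4.05 in tail EC. cfap43 was at 14.0 and 72.3 FPKM in kidney DN and 3.08 and 7.21 in kidney HSPC, and at 0, 0.449 and 0.807 in tail DN, 0, 0.0204 and 1.72 in tail HSPC and 0, 0.104 and 2.14 in tail EC. CFAP70, which has been placed at the outer arms, was at 8.97 and 64.2 FPKM in kidney DN and 2.67 and 7.07 in kidney HSPC, and at 0, 0.258 and 0.937 in tail DN, 0, 0.0152 and 1.40 in tail HSPC and 0, 0.166 and 2.37 in tail EC. For these the kidney HSPC libraries too were above every tail library. cfap100 and cfap157 were the cfap genes not called between kidney and tail DN. cfap100 was listed at 0 and at 0.885 FPKM in kidney DN, and cfap157 was at 1.33 and 2.04 FPKM with a change of 0.97 ± 0.29, just under the size asked for. cfap73 was called in kidney DN at low levels, 2.93 and 2.79 FPKM, and was at 2.61 and 3.87 in kidney HSPC.

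IFT genes were detected in more tail libraries than the other families and had the smallest median change. ift46, of the B complex, which carries outer dynein arms in Chlamydomonas, was at 135 and 197 FPKM in kidney DN and 13.8 and 37.7 in kidney HSPC, and at 3.39, 4.44 and 14.4 (lowest, median, highest) in tail DN, 0, 0.589 and 8.34 in tail HSPC and 0, 0.776 and 6.59 in tail EC. ift27, a small GTPase of the B complex, was at 81.8 and 122 FPKM in kidney DN and 16.3 and 23.6 in kidney HSPC, and at 4.40, 5.52 and 9.01 in tail DN, 0, 5.63 and 8.10 in tail HSPC and 0, 3.00 and 13.6 in tail EC. Both were above the tail in both kidney sorts, except that ift46 in kidney HSPC replicate 1 lay just below the highest tail DN library. ift57 was at 55.8 and 103 FPKM in kidney DN and 3.72 and 8.63 in kidney HSPC, and at 3.17, 5.38 and 12.3 in tail DN, 0, 1.91 and 4.93 in tail HSPC and 0, 3.86 and 7.79 in tail EC. ift81 and ift74 form the tubulin-binding pair of the B complex, and their changes differed in size. ift81 was at 23.5 and 125 FPKM in kidney DN and 4.98 and 9.70 in kidney HSPC, and at 0.611, 1.48 and 2.40 in tail DN, 0, 1.30 and 2.26 in tail HSPC and 0, 1.42 and 2.69 in tail EC, a change of 4.55 ± 0.54 in DN. ift74 was at 33.4 and 22.1 FPKM in kidney DN and 11.7 and 15.4 in kidney HSPC, and at 13.6, 17.7 and 21.6 in tail DN, 7.81, 12.8 and 13.6 in tail HSPC and 11.1, 23.5 and 33.0 in tail EC, a change of 0.60 ± 0.49 (adjusted p = 0.371). ift20, which also works at the Golgi, was the other IFT gene not called, at 6.58 and 15.6 FPKM in kidney DN against a tail DN median of 10.5. ift140, of the A complex, was at 7.52 and 26.7 FPKM in kidney DN and at most 3.85 in tail DN.

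Within the kidney, the cilium genes were lower in HSPC than in DN. The median change was −2.53 on the log2 scale, against 0.30 over all genes, and 48 of the 74 were called lower (64.9%, against 5.20% of all tested genes) and 0 higher (2.40%). They were 15 dyneins, 4 assembly factors, 7 spoke and spag genes, 2 of the 5 tektins and saxo2, 16 cfap and 4 IFT genes. Both kidney DN libraries lay above both kidney HSPC libraries for 55 of the 74, against 13.6% of all tested genes. The ratio of mean FPKM, kidney DN over kidney HSPC, had a median of 8.27, exceeded 10 for 31 genes and ran from 0.381 for cfap100 to 88.0 for saxo2. saxo2 was −6.06 ± 0.48 in kidney HSPC relative to kidney DN (adjusted p = 6.12e-08), tekt1 −5.50 ± 0.37 and rsph9 −5.26 ± 0.44. dnai1.1 (−3.72 ± 0.47), dnaaf2 (−3.83 ± 0.51), dnaaf1 (−3.33 ± 0.40), rsph4a (−4.46 ± 0.52), cfap45 (−4.83 ± 0.50), cfap77 (−4.52 ± 0.53), ift57 (−3.51 ± 0.76) and ift81 (−2.80 ± 0.69) were called as well. tekt4 (−1.45 ± 0.60, adjusted p = 0.185), ift27 (−2.29 ± 0.85, adjusted p = 0.125) and ift74 (−0.97 ± 0.62) were not. The count was 22 with a pseudocount of 0.1 and 11 by limma-voom on recovered reads, all among the 48. Shares of all genes under these settings are not given here. Among all genes, 31.6% of the calls in this comparison were higher in HSPC, and 18.4% were under median-of-ratios scaling, where 54 cilium genes were called.

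Kidney HSPC were next set against tail HSPC, the mean of 3 stages. The cilium genes were higher by a median of 1.36 where all genes had 0.49. Of the 74, 36 rose (48.6%, against 11.3% of all tested genes) and 0 fell (1.26%). The risers were 8 dyneins, 2 assembly factors, 5 spoke and spag genes, 15 cfap and 6 IFT genes, and 0 of the 5 tektins and saxo2. Both kidney HSPC libraries exceeded all 6 tail HSPC libraries for 31 of the 74, against 19.0% of all tested genes. ift46 rose most, by 3.46 ± 0.47 (adjusted p = 6.36e-05), then dnai1.1 by 2.73 ± 0.39 and ift27 by 2.42 ± 0.69. dnah9 (2.18 ± 0.51), cfap43 (2.13 ± 0.42), CFAP70 (2.13 ± 0.48), rsph4a (2.12 ± 0.43), cfap58 (1.99 ± 0.46), rsph3 (1.98 ± 0.39) and dnaaf3l (1.85 ± 0.31) followed. saxo2 (0.91 ± 0.39, adjusted p = 0.142) and cfap20 (0.44 ± 0.67) did not pass. Against tail HSPC at 3 dpf alone 45 rose (14.1% of all genes) and 0 fell (0.433%). For the count of 36, shares of all genes in the refits without a library are not given here. The count rested on 1 library: without kidney HSPC replicate 2 it was 3, namely ift46 (2.77), dnai1.1 (2.14) and rsph3 (2.02), and without replicate 1 it was 39.

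The change from tail to kidney was compared between the sorts directly, over the 3 shared stages. It was smaller in HSPC than in DN for 47 of the 74 (63.5%, against 5.73% of all tested genes) and larger for 0 (18.7%), with a median difference of −2.41 against 0.59 over all genes. saxo2 differed most (−6.51 ± 0.55), followed by tekt1 (−5.65 ± 0.42), rsph9 (−5.44 ± 0.51), dnali1 (−5.41 ± 0.69), cfap77 (−5.01 ± 0.61) and dnai1.2 (−4.87 ± 0.71). Of the 12 IFT genes 1, ift81 (−2.54 ± 0.79), was among the 47. For ift46 the difference was −1.05 ± 0.66 (adjusted p = 0.289). With a pseudocount of 0.1 the count was 17, and by limma-voom on recovered reads it was 9 smaller and 1 larger. Shares of all genes under these settings are not given here.

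The kidney replicates were not equal, and in kidney DN the inequality of the cilium genes tended to follow gene length. In kidney DN, replicate 2 was above replicate 1 by a median of 2.50-fold over the 70 cilium genes with at least 1 FPKM in both, against 1.55-fold over all such genes. For genes under 2000 bases the ratio was 1.49 for cilium genes (27 genes) and 1.28 for all genes; from 2000 to 5000 bases it was 2.52 (28 genes) and 1.66; from 5000 to 10000 bases 3.50 (7 genes) and 2.07. At 10000 bases and more it was 7.89 (8 genes) and 2.33. The cilium genes in that class were all dynein heavy chain genes, so length and family cannot be told apart there. Across these 70 genes, log2 ratio and log2 length had a Pearson r of 0.667 and a Spearman rho of 0.614, as a description over genes of the same 2 libraries. In kidney HSPC the ratio was 2.27 for cilium genes and 1.39 for all genes, with 1.98, 2.31, 2.11 and 2.73 from the shortest class to the longest. The short genes saxo2 and tekt1 were nearly equal in the kidney DN replicates while dnah1 and dnah9 differed many times. Other short genes differed too, such as cfap161 (1254 bases, log2 ratio 2.12) and dnal4b (1050 bases, 1.88). Replicate 1 gave the smaller change of long genes. Leaving out kidney DN replicate 2 gave 57 calls between kidney and tail DN in place of 66, of which 56 were among them, and leaving out replicate 1 gave 65, of which 64 were.

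**Figure D4:**
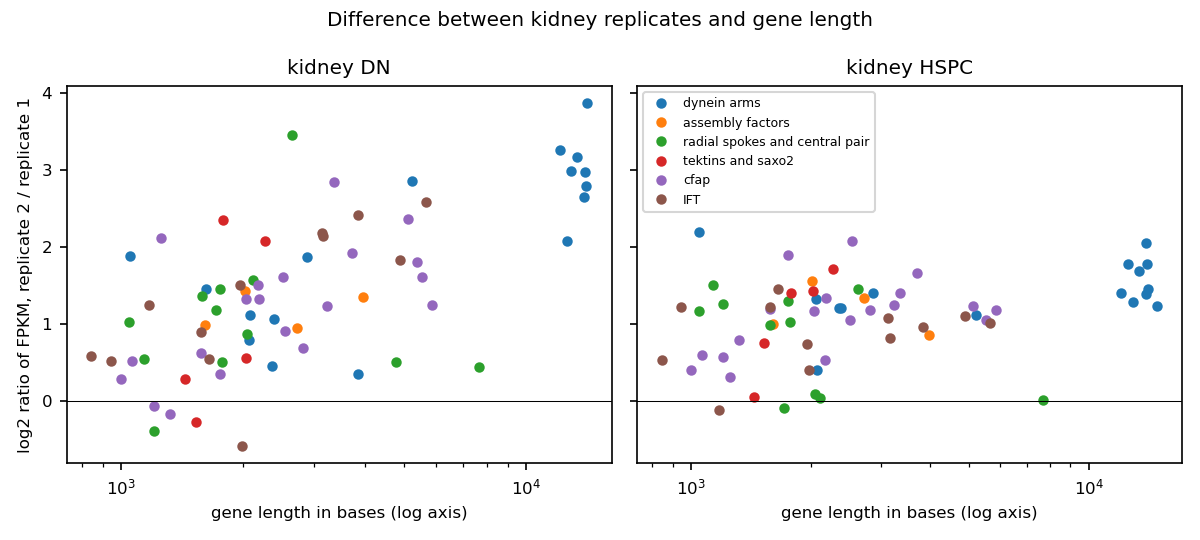
Log2 ratio of replicate 2 to replicate 1 (vertical axis) against gene length in bases (horizontal log axis) for the cilium genes, in kidney DN and kidney HSPC. In kidney DN the ratio climbs with length, from a median of 1.49-fold under 2000 bases to 7.89-fold at 10000 bases and more; in kidney HSPC the medians of the classes are 1.98, 2.31, 2.11 and 2.73-fold.

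In the tail, few cilium genes were called between the sorts when stages were averaged. Between tail DN and tail HSPC 5 were higher (6.76%, against 23.7% of all tested genes) and 1 lower (1.35%, against 6.93%), with a median change of 0.01 beside 0.22 over all genes. The 5 were ift46 (1.73 ± 0.33), ift57 (1.37 ± 0.44), ift80 (1.26 ± 0.41), spag9a (2.1 ± 0.35) and spag1a (1.68 ± 0.55), and the 1 was dnai1.2 (−1.30 ± 0.35). Between tail DN and tail EC 3 were higher (4.05%, against 24.7% of all tested genes), namely ift46 (1.58 ± 0.33), ift80 (1.34 ± 0.41) and spag9a (2.1 ± 0.35), and 2 were lower (2.70%, against 5.80%), namely dnali1 (−1.03 ± 0.34) and RSPH1 (−1.09 ± 0.40). By limma-voom on recovered reads 15 were higher in DN than in HSPC and 4 lower in DN than in EC, and median-of-ratios scaling gave 8 higher and 0 lower than in EC. The 2 lower genes were called without EC at 4 dpf replicate 2, and 0 or 1 were called without each other library of that pair of sorts; the 3 higher genes became 9 without EC at 4 dpf replicate 1. The 5 higher against HSPC became 3 without HSPC at 4 dpf replicate 2 or without DN at 36 hpf replicate 1; the 1 lower gene was lost without the former and joined by another without HSPC at 3 dpf replicate 1.

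Stage by stage, in comparisons added after seeing the data, the calls differed between 36 hpf and 3 dpf. At 36 hpf, 15 of the 74 were lower in DN than in EC (20.3%, against 2.12% of all tested genes) and 0 higher (1.21%); 11 were lower in DN than in HSPC (14.9%, against 2.80%) and 0 higher (4.48%). RSPH1 held 16.8 and 18.2 FPKM in EC, 10.6 and 11.6 in HSPC and 1.37 and 0.554 in DN, and differed between DN and EC by −3.27 ± 0.70 (adjusted p = 0.0139). tekt4 held 8.82 and 13.7 FPKM in EC, 10.5 and 9.16 in HSPC and 0.348 and 1.27 in DN, with a difference from EC of −2.78 ± 0.60. rsph9 (−2.56), tekt2 (−2.59), cfap45 (−2.48) and spag6 (−2.26) were also lower in DN than in EC at 36 hpf, and 0 IFT genes were. At 3 dpf, 6 were higher in DN than in HSPC (8.11%, against 23.5% of all genes) and 0 lower (5.56%). At that stage 3 were higher in DN than in EC (4.05%, against 17.1%) and 0 lower (5.28%). Both shares of higher genes at 3 dpf were below those of all genes and are not read as a reversal.

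Kidney tubule genes moved with the cilium genes at 36 hpf. Of 21 listed tubule genes, 10 were lower in DN than in EC at 36 hpf (2.12% of all tested genes) and 12 lower in DN than in HSPC (2.80%). Their summed FPKM was 510 and 781 in EC, 436 and 507 in HSPC and 173 and 159 in DN. cdh17, a cadherin of the pronephric tubule, reached 105 and 178 FPKM in EC, with 70.5 and 78.8 in HSPC but 1.39 and 2.21 in DN, a difference of −5.64 ± 0.87 between DN and EC. slc12a3, the salt transporter of the distal tubule, was at 33.8 and 73.5 FPKM in EC, 24.3 and 36.6 in HSPC and 0.638 and 0.625 in DN. Floor plate and central canal genes gave summed FPKM of 286 and 302 in EC, 136 and 143 in HSPC and 181 and 222 in DN at 36 hpf. Of the 11, 4 were lower in DN than in EC (2.12% of all tested genes) and 0 higher (1.21%). The 4 were shha (−2.52), foxa2 (−2.69), urp1 (−4.07) and urp2 (−3.37). Between DN and HSPC, 0 were lower in DN (2.80%) and 1 higher (4.48%). The part of tubule or floor plate cells in the 36 hpf values was not tested.

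Some cilium genes fell in HSPC from 36 hpf to 3 dpf. Of the 74, 21 fell (28.4%, against 19.6% of all tested genes) and 0 rose (2.52%), with a median change of −1.10 beside −0.31 over all genes. The share was not far above that of all genes. The 21 were 3 of 4 assembly factors, 5 spoke and spag genes, 3 tektins and saxo2, 8 cfap genes, 1 dynein and 1 IFT gene. tekt4 fell by 3.44 ± 0.60 on the log2 scale, ift46 by 2.81 ± 0.57, spag6 by 2.80 ± 0.49, cfap45 by 2.75 ± 0.50 and DNAI2, an outer arm intermediate chain gene, by 2.33 ± 0.31. Markers of other cells fell in the same comparison: 10 of 10 neuron genes (median −4.34), 11 of 11 epidermis genes (median −5.85), 16 of 21 tubule genes (median −2.74), 8 of 13 lateral line genes and 6 of 11 floor plate genes. The summed FPKM of the epidermis list was 13610 and 14765 at 36 hpf and 184 and 172 at 3 dpf, and that of the neuron list 468 and 514 at 36 hpf and 10.3 and 24 at 3 dpf. The part of these cells in the change was not tested. Shares of all genes are not given here for the refits that follow. The count was 10 without HSPC at 36 hpf replicate 2, 39 with a pseudocount of 0.1 and 41 by limma-voom on recovered reads. In DN between 36 hpf and 4 dpf limma called 0 cilium genes higher (2.64% of all tested genes) and 0 lower (1.63%); 3 had an unadjusted p under 0.05, median-of-ratios scaling called 1, and limma-voom on recovered reads called 0.

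Genes of the same structures that do not carry these names were also read. Of 43 other motile axoneme genes, 42 rose from tail to kidney DN with a median of 4.98 (16.7% of all tested genes rose), 38 were lower in kidney HSPC than in kidney DN with a median of −3.30 (5.20% of all), and 27 rose from tail to kidney HSPC (11.3% of all). enkur, an inner protein of the doublets, was at 187 and 322 FPKM in kidney DN and 7.65 and 18.1 in kidney HSPC. tppp3, a tubulin-binding gene, was the 1 of the 43 not called in DN. From 36 hpf to 3 dpf 32 of the 43 fell in HSPC (19.6% of all). Genes shared with primary cilia were read against the same shares: of 23 BBSome and transition zone genes 13 rose from tail to kidney DN and 4 were lower in kidney HSPC than DN, and of 15 kinesin-2 and dynein-2 genes 10 and 5.

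Regulators of ciliogenesis were mixed. Of 12 listed genes, 7 rose from tail to kidney DN (16.7% of all tested genes) and 1 fell (19.7%). Within the kidney 3 were lower in HSPC than in DN (5.20%). foxj1a, the forkhead factor that turns on motile cilium genes, was at 21.6 and 54.4 FPKM in kidney DN and 2.90 and 8.19 in kidney HSPC. At 36 hpf EC held 27.8 and 32.8 FPKM, HSPC 12.6 and 12.2 and DN 13.9 and 14.2. Its level in EC at 36 hpf lay between those of the kidney DN replicates. It rose by 2.13 ± 0.47 from tail to kidney DN. rfx3, an RFX factor of ciliogenesis, was at 94.5 and 161 FPKM in kidney DN and 5.66 and 11 in kidney HSPC and rose by 2.77 in DN. gmnc, the upstream factor of multiciliated cells, was at 3.32 and 6.07 FPKM in kidney DN and 0.101 and 3.08 in kidney HSPC and rose by 2.39. rfx4, known from the neural tube, fell.

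Germ line markers also stood high in the kidney libraries. For comparison with the counts that follow, 16.7% of all tested genes rose and 19.7% fell from tail to kidney DN, 11.3% rose from tail to kidney HSPC, and 5.20% were lower and 2.40% higher in kidney HSPC than in kidney DN. The lists count only tested genes, and kidney libraries alone can meet the filter of at least 1 FPKM in at least 2 libraries. No tail library had more than 7 of 18 meiosis, 8 of 11 sperm or 7 of 14 germ cell genes above 1 FPKM. The choice of tested genes thus favours rises from tail to kidney in these lists. It can also favour a difference between the kidney sorts, where a gene met the filter in a single kidney sort. Of 18 meiosis genes 16 rose from tail to kidney DN (median 4.02), 12 rose from tail to kidney HSPC and 8 were lower in kidney HSPC than in kidney DN. Their summed FPKM was 394 and 1091 in kidney DN, 135 and 326 in kidney HSPC and at most 17.8 in tail DN and 68.4 in tail HSPC. sycp1, of the synaptonemal complex, was at 118 and 400 FPKM in kidney DN and 7.44 and 22.4 in kidney HSPC. Of 11 spermatid and sperm genes 9 rose from tail to kidney DN, 1 fell, gapdhs (−1.49 ± 0.40, adjusted p = 0.00563), and 9 were lower in kidney HSPC than in kidney DN. From tail to kidney HSPC, odf3b, dcst1, dcst2, spata4, spata7, spata17 and tsga10 rose, by between 1.25 (spata17) and 2.34 (spata4). The other sperm genes, tssk6, theg, spata18 and gapdhs, were not called in that comparison. tssk6, a kinase of late spermatids, was at 62.0 and 56.2 FPKM in kidney DN and 0.581 and 1.02 in kidney HSPC. odf3b, a flagellar gene that is also in the axoneme list, was at 155 and 286 FPKM in kidney DN and 3.14 and 8.90 in kidney HSPC. Some sperm genes also varied in the tail. At 36 hpf odf3b (−2.42) and theg (−2.31) were lower in DN than in EC. From 36 hpf to 3 dpf odf3b (−1.42), spata4 (−2.22), spata17 (−1.85), spata18 (−2.11) and tsga10 (−1.35) fell in HSPC. No gene of the list was called the other way in either comparison. gapdhs of the sperm list was at 173 FPKM or more in both kidney DN and at 36 hpf and sets much of the list's summed level. That sum was 696 and 1039 in kidney DN, 343 and 395 in kidney HSPC and 303 to 1264 in tail DN. Of the listed oocyte genes, gdf9 (1.96) and zp3b (1.26) rose from tail to kidney DN and bmp15 (1.92) from tail to kidney HSPC. No other oocyte gene was called in these comparisons.

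Genes of the germ cell list went the other way between the kidney sorts, and which germ cell stages they mark here was not tested. Of 14 germ cell genes 12 rose from tail to kidney HSPC (median 5.19), and 10 rose and 1 fell from tail to kidney DN. Between the kidney sorts 8 were higher in HSPC (median 2.30), where 2.40% of all tested genes were. The kidney HSPC libraries alone can meet the filter for such a gene, which favours these calls over that share. ddx4, the RNA helicase vasa, was at 181 and 631 FPKM in kidney HSPC and 19.3 and 99.0 in kidney DN. Their summed FPKM was 621 and 2148 in kidney HSPC, 73.4 and 422 in kidney DN and at most 13.0 in tail DN and 23.2 in tail HSPC. nanos3 and ca15b of this list were listed at 0 in both kidney DN libraries. Of the 21 tubule genes 0 were called in either direction between kidney HSPC and kidney DN. As 5.20% of all tested genes were lower and 2.40% higher, a count of 0 in so short a list is near those shares. The median change of the tubule genes was 0.85, against 0.30 over all genes. From tail to kidney DN, 12 of the tubule genes rose (16.7% of all) and 3 fell (19.7%). Their summed FPKM was 151 and 208 in kidney DN and 188 and 375 in kidney HSPC, under the 510 and 781 of EC at 36 hpf. slc12a1 and slc12a3 were listed at 0 in kidney DN replicate 1. The tubule sums of kidney DN lay within the range of the 8 tail DN libraries, 119 to 373. By number of genes they differed: 15 to 21 of the 21 were above 1 FPKM in kidney DN, and 7 to 14 in tail DN. A list for somatic testis cells (Sertoli and Leydig) had 9 tested genes, and whether they mark such cells here was not tested. No tail library had more than 5 of the 9 above 1 FPKM, so the filter favours rises from tail to kidney here too. From tail to kidney DN 6 rose (16.7% of all tested genes) and 1, sox9a (−1.98), fell (19.7%). The 6 were dmrt1 (3.85), gsdf (2.50), star (2.14), insl3 (1.54), amh (1.07) and cyp11c1 (1.04). From tail to kidney HSPC, dmrt1 (4.67) and gsdf (1.60) were called higher (11.3% of all) and no gene of the list lower (1.26%). Between the kidney sorts only amh was called, lower in HSPC (−1.15), where 5.20% of all tested genes were. The labels name kidney and no gonad; whether gonadal cells were in the kidney samples was not tested, nor was the part of germ cells, sperm or tubule cells in any kidney value given here.

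**Figure D5:**
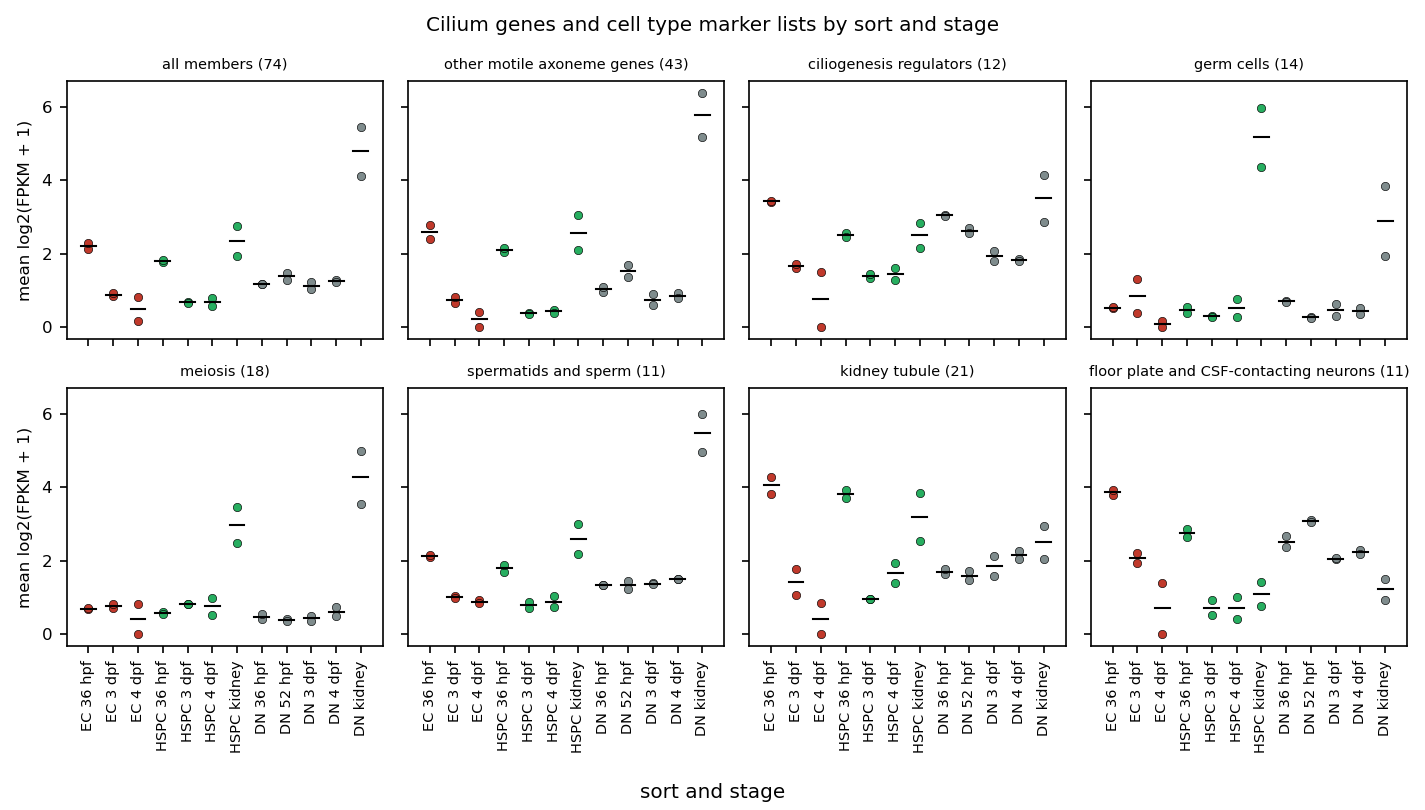
Mean log2(FPKM + 1) of 8 gene lists (panels) in every library (points; red EC, green HSPC, grey DN) by sort and stage. The cilium genes, other axoneme genes, meiosis genes and sperm genes are highest in kidney DN, germ cell genes in kidney HSPC, and tubule and floor plate genes in EC at 36 hpf or other tail libraries.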

How the data were processed

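Sorted cells were profiled by polyadenylated RNA sequencing (RNeasy Mini extraction and NEBNext Ultra libraries, per the labels' protocols). Tools named in the submitters' processing notes are HISAT, HTSeq, FastQC and DESeq2, beside build GRCz10, without roles or versions. The authors deposited FPKM values; 6 gene names are repeated, 557 genes are at 0 in all libraries and 0 columns were left unmapped. How strand was counted is not given here, and paralogs such as dnai1.1 and dnai1.2 may share reads. FPKM steps gave whole reads, within 0.01 of a read, for 23718 of 23718 genes above 0 in at least 3 libraries, and gene lengths.

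Here log2(FPKM + 1) of 21024 genes was modelled by limma 3.58.1 (R 4.3.3; trended eBayes) with 12 group means; residual degrees of freedom were 12 and prior ones 5.89 at the median. The fit was also run on simulated counts, with the same dispersion for every gene and changes planted only in genes well above the floor. That run does not bear on genes with low values or on unequal replicates, and its outcome is not given here. Adjusted p-values are limma's, two-sided. Alternatives were no filter, a pseudocount of 0.1, median-of-ratios scaling, a replicate block, fits of only the groups compared, single stages and each replicate left out. Voom weights on the recovered reads (limma-voom), leaving out both poor 4 dpf libraries, kidney DN against EC at 36 hpf, and the 36 hpf and 3 dpf tail comparisons were chosen after seeing the data. The gene names, lists and comparisons were chosen with earlier results of these data known. Genes described in every library were, per family, the highest in kidney and in tail and the 2 largest called changes per direction and kidney comparison with at least 1 FPKM in the higher group; others are named freely. Promoter motifs were not analysed here. By symbol, 72 of the 74 genes matched RefSeq. Python 3.11.15, numpy 2.4.6, pandas 2.3.3 and matplotlib 3.10.9 were used.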

Additional observations from a re-analysis of the deposited data

Results flagged for a closer look

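The change from tail to kidney differed between the sorts, by the test of the difference itself, for 47 of the 74 cilium genes, all smaller in HSPC (5.73% of all tested genes were smaller and 18.7% larger). The count was 17 with a pseudocount of 0.1, and 9 smaller and 1 larger by limma-voom on recovered reads, without shares of all genes for these settings. Each value is the kidney minus tail change in HSPC less that in DN, in log2 units from limma, and a negative value means a smaller rise in HSPC. Among dynein arm genes it was −5.41 for dnali1, −4.87 for dnai1.2, −3.83 for dnai1.1, −3.57 for dnal4b and −3.53 for dnah9. Among assembly factors it was −3.68 for dnaaf1, −3.47 for dnaaf3l and −3.28 for dnaaf2. Spoke and central pair genes gave −5.44 for rsph9, −4.48 for spag6, −4.25 for rsph4a and −3.19 for rsph3. saxo2 gave −6.51 and tekt1 −5.65. Of the cfap genes, cfap77 gave −5.01, cfap52 −4.22, cfap45 −4.11, cfap58 −4.11, cfap20 −3.63, cfap43 −2.47 and CFAP70 −2.22. ift81 gave −2.54.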

How the results depend on the processing

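Depth and 2 libraries per group limit the results, and cilium genes listed at 0 in the tail HSPC and EC libraries of 3 and 4 dpf may be undetected rather than absent. For refits with a library left out, a pseudocount of 0.1 or limma-voom, the shares of all genes called are not given here. Counts of cilium genes under those settings therefore show how far the calls depend on processing, not how the cilium genes compare with all genes. Leaving out 1 replicate gave 3 to 39 higher and 0 to 0 lower for kidney HSPC minus tail HSPC, 56 to 66 and 0 to 1 for kidney DN minus tail DN, 0 to 1 and 34 to 56 for kidney HSPC minus kidney DN, 0 to 1 and 36 to 52 for the difference of changes, 3 to 7 and 0 to 2 for tail DN minus tail HSPC, 2 to 9 and 0 to 2 for tail DN minus tail EC, and 0 and 10 to 16 for HSPC 3 dpf minus 36 hpf. A pseudocount of 0.1 called 0 lower in kidney DN minus tail DN, 22 lower within the kidney, 17 lower in the difference and 39 lower in HSPC over time. Without the filter 1 was lower in tail DN minus tail EC. Median-of-ratios scaling gave 2 lower in kidney DN, 8 higher and 0 lower in tail DN minus tail EC, and 1 higher in DN over time. limma-voom gave 0 lower in kidney DN, 11 lower within the kidney, 1 higher and 9 lower in the difference, 15 higher in tail DN minus tail HSPC, 4 lower against tail EC and 41 lower in HSPC over time. Without both poor 4 dpf libraries 3 were lower in kidney DN, 3 higher in the difference, 0 lower in tail DN minus tail HSPC, and 1 higher over time in each of DN and HSPC. Fits of only the groups compared gave 3 lower in kidney DN, 1 higher in the difference and 4 higher in DN over time. Against tail DN at 4 dpf alone 0 were lower. Tail DN minus tail HSPC gave 0 higher and 11 lower at 36 hpf and 0 lower at 3 dpf, and tail DN minus tail EC gave 0 higher and 15 lower at 36 hpf and 0 lower at 3 dpf. Reversed values were tekt4 at −0.16 for kidney DN minus EC at 36 hpf, and, at 36 hpf alone, cfap45 at −2.14, cfap52 at −1.74 and ift46 at −0.53 for DN minus HSPC and cfap45 at −2.48 and ift46 at −0.56 for DN minus EC. The cause of these differences was not tested. With the replicate block the counts were unchanged at 36, 65 and 1, 48, 47 and 21. Same-numbered samples shared little deviation (correlations of −0.338 to 0.268 over 66 pairs of groups, 6 over 0.1). For the cilium genes, however, replicate 2 was above replicate 1 in both kidney sorts, by medians of 2.50-fold in DN and 2.27-fold in HSPC. Whether same-numbered kidney samples shared fish or preparation was not tested. Median-of-ratios scaling shifted the median of all genes by −0.21 in kidney HSPC minus tail HSPC, −0.31 within the kidney, −0.18 in the difference, 0.13 and 0.24 in tail DN minus tail HSPC and EC, and −0.27 in HSPC over time.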
